A study of Mus musculus with 2 samples.

Results

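MEN1, DAXX, ATRX, TSC1, TSC2, CDKN1B and RB1, tumor suppressor genes that are recurrently mutated or silenced in neuroendocrine tumors, were followed in RNA from a primary and a metastatic xenograft. These 7 genes were chosen by name from 57011 distinct gene labels. A xenograft of this kind is a human tumor passaged in immunodeficient mice. Both tumors were of gastroenteropancreatic neuroendocrine type and grew in athymic nude mice (strain Foxn1nu), which lack T cells and still supply the graft with mouse fibroblasts, vessels and myeloid cells. The primary tumor was grown in the flank, the metastatic tumor in the peritoneal cavity, and the labels name no treatment. There was 1 library for each, so a difference between the 2 tumors has no replicate check, no test was run, and origin of the tumor and site of the graft cannot be told apart. Whether both tumors came from 1 person is not stated in the labels.

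The 7 genes act at several levels of growth control. MEN1 encodes menin, a scaffold that holds histone H3 lysine methyltransferases at promoters, CDKN1B among them. ATRX and DAXX form a chaperone that places the histone variant H3.3 at telomeres and other repeats, and its loss in pancreatic neuroendocrine tumors goes with telomere maintenance by recombination. TSC1 and TSC2 form a complex that switches off the small GTPase Rheb and through it the kinase mTORC1. CDKN1B encodes p27, an inhibitor of cyclin E with CDK2, and RB1 encodes the retinoblastoma protein, which holds E2F factors inactive until cyclin D kinases phosphorylate it. Loss of MEN1, DAXX, ATRX or the TSC genes is known from well-differentiated pancreatic tumors, while loss of RB1 is known from poorly differentiated carcinomas. Many of these losses are point mutations, which a transcript level does not show.

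Values are FPKM. By definition this unit scales the fragments of a gene to its length and to the size of the library. Levels of different genes can therefore be set side by side. How library size entered the deposited values was not tested. FPKM summed to 784987 for the primary tumor and 885319 for the metastatic one. The median log2 ratio over all entries was 0.03 as deposited and -0.13 with both libraries brought to the same sum. Of 12 neuroendocrine markers, 6 were measured alone and at 1 FPKM or more in a library. With 1 FPKM added to each value, 2 of these were higher by 2-fold or more in the metastatic tumor and 2 lower. Their median log2 ratio was -0.40. UCHL1 stood at 225 FPKM in the primary tumor and 705 in the metastatic one, DDC at 48.1 and 103, and SYP at 1.63 and 1.96. INSM1 stood at 3.54 and 0.271 FPKM, SCG2 at 2.62 and 0.340, and CHGB at 1.64 and 0.336. CHGB was 4.89-fold lower as FPKM alone, and the added 1 FPKM kept it short of 2-fold, at -0.98. With both libraries brought to the same sum CHGB was past 2-fold, which made 3 lower and 1 higher. CHGA, another of the 12 markers, was listed at 0 in both libraries in 2 rows. Names with several rows were often near 0 in this table, as described further on for DAXX. Values of genes used as stromal markers also differed. What was done with mouse reads is not stated, so these values are not read as an amount of stroma. Fibroblast markers summed to 523 FPKM in the primary tumor and 160 in the metastatic one over 9 genes, of which COL1A2 made up 474 and 149. Of 6 expressed fibroblast markers 4 were lower by 2-fold or more and 1 higher, DCN at 0.370 and 2.89 FPKM, with LUM at 0 in the primary tumor and POSTN at 0 in the metastatic one. Endothelial markers summed to 25.6 and 4.48 FPKM over 8 genes with KDR at 0 in both, and immune markers to 5.24 and 13.1 over 7 genes. LYZ made up 2.72 and 12.0 FPKM of the immune sum, while CSF1R stood at 1.06 and 0.243, CD14 at 0.767 and 0.341 and PTPRC at 0.111 and 0.0403; CD3E was at 0 in both, as was AIF1 in 6 rows. Their part in the values of the 7 genes was not tested.

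Of the 7 genes, 6 were expressed at 1 FPKM or more in both tumors, and DAXX, with rows of uncertain meaning described further on, was not. TSC2 stood at 41.4 FPKM in the primary tumor and 31.8 in the metastatic one. ATRX stood at 39.8 and 19.4 FPKM. CDKN1B stood at 36.9 and 23.6 FPKM. These were the 3 most abundant of the 7 genes in both libraries, and each was lower in the metastatic tumor. MEN1 stood at 15.5 FPKM in the primary tumor and 16.8 in the metastatic one, TSC1 at 7.05 and 6.82, and RB1 at 4.88 and 4.44. These last 3 were nearly level between the tumors. Against a median of 10.5 FPKM over all entries in the primary tumor and 9.99 in the metastatic one, TSC1 and RB1 were below the middle and the other 4 above it. The order of levels was the same in both tumors except for ATRX, above CDKN1B in the primary tumor but under it in the metastatic one. With 1 library each, the spread around neighbouring levels is unknown. In bulk RNA, fewer cells of a type and less RNA per cell cannot be told apart.

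**Figure D1:**
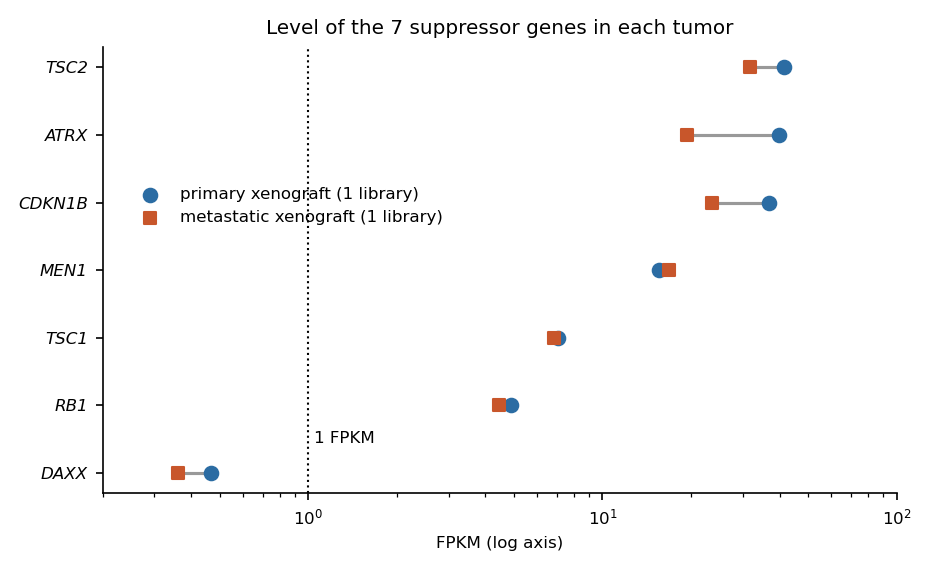
Level of each of the 7 genes in FPKM (log axis) in the primary xenograft (circles) and the metastatic xenograft (squares), 1 library each, with a line joining the 2 values of a gene. TSC2, ATRX and CDKN1B lie highest and shift left in the metastatic tumor, MEN1, TSC1 and RB1 barely move, and DAXX lies left of 1 FPKM in both.

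The ratio between the tumors was taken as log2((metastatic + 1)/(primary + 1)), which understates differences of low genes. Counts past 2-fold use that ratio, so a gene can fall short of 2-fold although its FPKM alone differ by more. One of the 7 genes, ATRX, was lower by 2-fold or more in the metastatic tumor and 0 were higher by as much. Among all 13811 entries of at least 1 FPKM in a library, 9.35% were lower by that much and 9.22% higher. With both libraries brought to the same sum there were 1813 entries lower and 1029 higher, in place of 1291 and 1273. A count of 1 in 7 is near that background. At a 1.5-fold threshold ATRX and CDKN1B were lower, 2 of 7, against 20.0% of all entries. The median log2 ratio of the 7 genes was -0.11, beside 0.03 for all entries. Of the 7 ratios, 6 were below 0, while 51.8% of all entries were above it. Within 0.2 of 0 lay 4 of the 7, beside 22.0% of all entries. DAXX, 1 of these 4, had a log2 ratio of -0.38 without the added 1 FPKM. It is not among the 13811 entries.

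**Figure D2:**
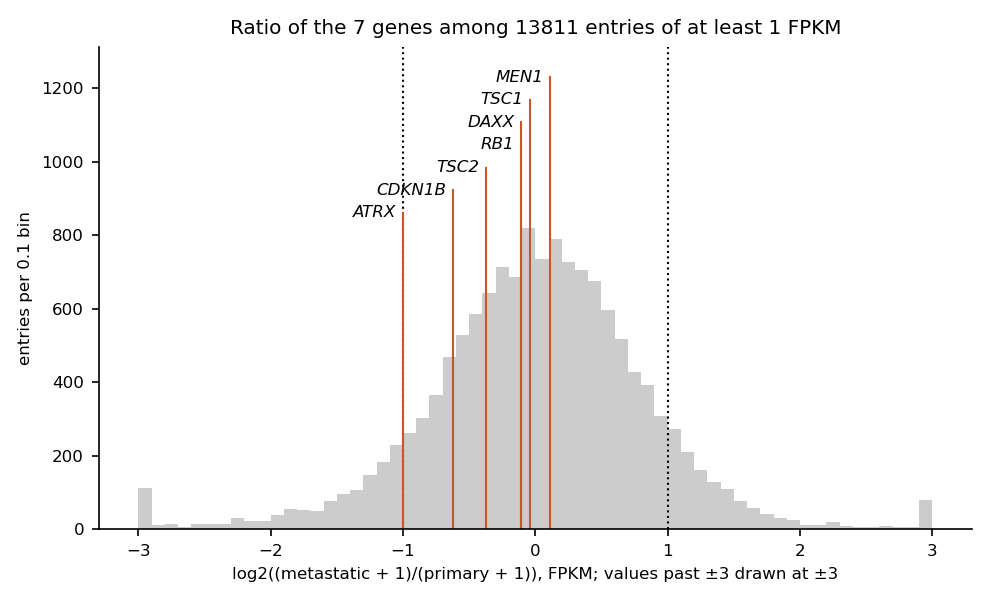
Histogram of the log2 ratio, metastatic over primary, of 13811 entries of at least 1 FPKM in a library (grey, entries per bin of 0.1), with a vertical line at the ratio of each of the 7 genes and dotted lines at 2-fold. ATRX lies on the lower 2-fold line, CDKN1B and TSC2 inside it, and RB1 and DAXX share a position near 0. DAXX is drawn although it stood under 1 FPKM in both libraries.

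ATRX, the chromatin remodeler of the pair with DAXX, had the largest difference of the 7 genes. Its 39.8 FPKM in the primary tumor exceeded 79.4% of all entries, and its 19.4 FPKM in the metastatic tumor exceeded 64.0%. The metastatic level was 48.6% of the primary level, and the log2 ratio was -1.003, lower than in all but 9.31% of entries. That ratio sat on the 2-fold line: it was -0.97 when libraries were scaled to the same 75th percentile and -1.18 when brought to the same sum. ATRX has a long transcript, and long transcripts tended to be lower in the metastatic library. Lengths came from mouse transcripts of the same name. In the group of 469 genes with transcripts of 8315 bases or longer, to which ATRX belongs at 10275 bases, the median log2 ratio was -0.25 and 11.7% were lower by 2-fold or more. Relative to that median ATRX was lower by a log2 difference of -0.75, short of 2-fold. ATRX was thus expressed in both tumors, above the median of all entries in each.

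**Figure D3:**
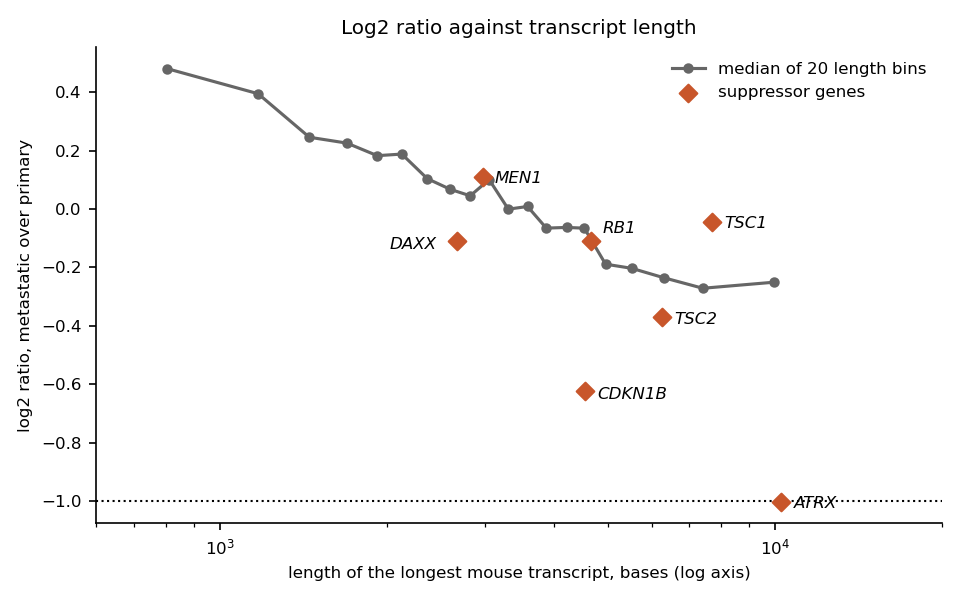
Log2 ratio, metastatic over primary, against the length in bases of the longest mouse transcript of the same name (log axis). Grey points joined by a line are medians of 20 length groups of expressed genes, diamonds are the 7 genes, and the dotted line is 2-fold lower. The medians run from 0.48 in the shortest group to -0.25 in the longest, and ATRX and CDKN1B lie furthest below them.

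DAXX, the histone chaperone subunit that binds H3.3, was spread over 6 rows of the table. Of these, 5 rows carried its name alone. Among them 3 were listed at 0 in both libraries, 1 stood at 0 in the primary tumor and 0.108 FPKM in the metastatic one, and 1 stood at 0.468 and 0.252 FPKM. A further row merged DAXX with SMIM40, a small neighbouring gene, at 0.756 and 0.468 FPKM. The rows of its own name summed to 0.468 FPKM in the primary tumor and 0.360 in the metastatic one, and with the merged row to 1.22 and 0.829 FPKM. Each sum was slightly higher in the primary tumor, and all were far under the 39.8 and 19.4 FPKM of its partner ATRX.

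The DAXX rows hold values at the low end of the table. Low values often stood in whole-number ratios between the libraries. With numbers up to 5 and a tolerance of 0.01%, 41.9% of 6509 rows below 1 FPKM did. The share was 0.63% when 1 library was raised by 5%. The DAXX rows lay outside numbers up to 5, at 13 to 7 and, merged with SMIM40, at 21 to 13. With numbers up to 25 the shares were 58.4% and 33.2%, a weaker contrast. The number of fragments behind the DAXX rows was not recovered, so the error of their difference is unknown.

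A low value in a name with several rows was common in this table, also for genes that are not tumor suppressors. The genes listed within 3 rows of a DAXX row showed the same picture. WDR46, a factor of ribosome assembly, was listed at 0 in both libraries in each of its 5 rows, as was RGL2 in its 5. VPS52, a subunit of a vesicle tethering complex, had 7 rows that summed to 0 and 0.0624 FPKM, and the locus of TAPBP and ZBTB22 had 5 rows that summed to 0.218 and 0.0471. RPS18, a ribosomal protein gene that dividing cells cannot do without, was listed at 0 in both libraries in 7 rows, and ABCF1, GNL1 and DHX16 likewise in 7, 8 and 8 rows. RPS18, ABCF1, GNL1 and DHX16 were chosen after their values were seen. Of other genes looked up with them, FLOT1, EHMT2 and PPP1R10 were also at 0 in several rows. BRD2, in 7 rows, stood at 6.63 FPKM in the primary tumor and 3.82 in the metastatic one, and TUBB, in 8, at 7.71 and 12.0. DDX39B was at 0 in both libraries with 1 row. Genome positions were not used here. For these named genes a shared region and the number of rows therefore cannot be told apart. Among the 7 suppressors and their listed pathway genes, 9 of 10 names with more than 1 row were under 1 FPKM in both libraries, against 2 of 162 names with 1 row. What the several rows stand for was not tested, and a lost DAXX transcript cannot be told apart from one that these rows leave uncounted.

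**Figure D4:**
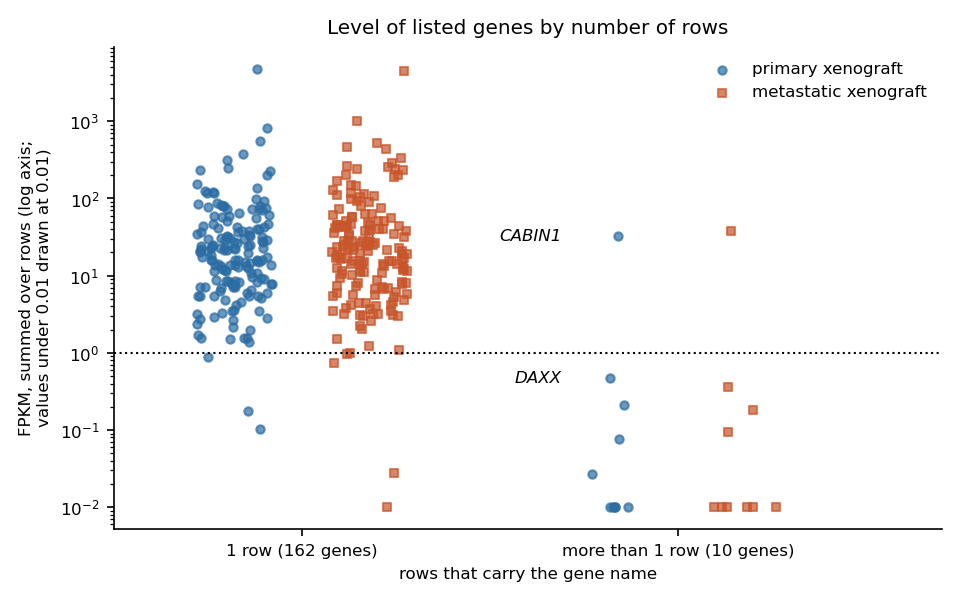
FPKM, summed over rows of the same name (log axis, values under 0.01 drawn at 0.01), of the suppressors and their listed pathway genes, split by whether the name has 1 row (162 genes) or more (10 genes), in the primary (circles) and metastatic (squares) xenograft; names are set at the primary values. Of the names with more than 1 row only CABIN1 lies above the dotted line at 1 FPKM, while DAXX lies under it.

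The genes that work with ATRX and DAXX on H3.3 were present in both tumors. Of 10 expressed genes of H3.3 deposition and partner proteins measured alone, 0 were lower by 2-fold or more and 0 higher, and their median log2 ratio was 0.04. H3F3B, one of the H3.3 genes, stood at 549 FPKM in the primary tumor and 460 in the metastatic one, and H3F3A at 43.0 and 45.4. UBN1, of the HIRA chaperone that places H3.3 in active genes, stood at 8.64 and 14.1 FPKM, and ASF1A, a chaperone upstream of it, at 19.7 and 24.9. CABIN1, also of the HIRA complex, stood at 32.6 and 37.7 FPKM in 3 rows. HIRA was listed only in a locus merged with C22orf39. PML and SP100, which build the nuclear bodies that hold DAXX, stood at 15.7 and 15.3 and at 87.5 and 91.0 FPKM. ASF1B was listed at 0 in both libraries in 2 rows.

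All 4 core proteins of the H/ACA particle, which binds telomerase RNA and also guides pseudouridylation of ribosomal RNA, were higher by 2-fold or more. DKC1, the pseudouridine synthase, stood at 71.4 FPKM in the primary tumor and 149 in the metastatic one. NHP2 stood at 118 and 265 FPKM, NOP10 at 94.1 and 243, and GAR1 at 31.5 and 72.7. With both libraries brought to the same sum NOP10 and GAR1 stayed past 2-fold, while NHP2 had a log2 ratio of 0.99 and DKC1 of 0.88. NHP2, NOP10 and GAR1 have short transcripts, in a length group with a median of 0.40. Relative to that median they were higher by log2 differences of 0.77, 0.96 and 0.78, all short of 2-fold, while DKC1 stayed on the 2-fold line at 1.002 after its own group's median was taken off. WRAP53, which brings the particle to Cajal bodies, stood at 5.50 and 11.8 FPKM. The catalytic subunit TERT was near the lower limit, at 1.54 FPKM in the primary tumor and 0.978 in the metastatic one, and the RNA component TERC, which lacks a poly(A) tail, stood at 0.179 and 0. The telomere-capping gene POT1 stood at 13.8 and 7.24 FPKM, past 2-fold only with the libraries brought to the same sum, while TERF1 stood at 14.5 and 12.0. Over the 10 expressed telomere genes the median log2 ratio was 0.66, with 4 higher and 0 lower, beside 9.22% and 9.35% of all entries. The counts were 2 and 1 with the libraries brought to the same sum, 5 and 0 with equal 75th percentiles, and 1 and 0 of 9 genes with a length once the length trend was removed. Of 9 expressed helicases and nucleases linked to telomere recombination, 0 passed 2-fold in either direction and the median was 0.01. BLM stood at 16.1 and 27.7 FPKM, MUS81 at 31.1 and 51.7, FANCM at 6.33 and 7.94 and POLD3 at 11.5 and 9.19.

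MEN1 was expressed at 15.5 FPKM in the primary tumor and 16.8 in the metastatic one, with a log2 ratio of 0.11. It was the only one of the 7 genes above 0, and it turned to -0.05 when the libraries were brought to the same sum. Its level exceeded 59.0% of entries in the primary tumor and 61.1% in the metastatic one. Menin's partners were also expressed in both tumors. Of 8 expressed partner genes measured alone, 0 were higher or lower by 2-fold or more and the median was -0.10. KMT2B, a histone H3 lysine 4 methyltransferase that menin binds, stood at 32.9 and 28.1 FPKM, and the shared subunits ASH2L and WDR5 at 20.3 and 16.9 and at 7.86 and 14.1. KMT2A was listed only in a locus merged with ATP5MG and is not read here. PSIP1, which tethers menin to chromatin, stood at 59.4 and 51.7 FPKM. The furthest from level was JUND, an AP-1 factor that menin represses, at 228 FPKM in the primary tumor and 119 in the metastatic one. Its log2 ratio of -0.93 passed 2-fold with the libraries brought to the same sum and with the length trend removed, but not under the other 2 scalings tried. CDKN2C and CDKN1B, known menin targets, stood at 31.2 and 26.5 and at 36.9 and 23.6 FPKM.

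TSC2, the GTPase-activating subunit of the tuberous sclerosis complex, was the most abundant of the 7 genes in both tumors, at 41.4 FPKM in the primary tumor and 31.8 in the metastatic one. Its log2 ratio was -0.37, and -0.14 with the length trend removed. TSC1, the subunit that stabilises it, stood at 7.05 and 6.82 FPKM with a log2 ratio of -0.04, and 0.23 with the length trend removed. TSC2 exceeded TSC1 by 5.87-fold in the primary tumor and 4.66-fold in the metastatic one. TBC1D7, the third subunit, stood at 13.9 and 15.0 FPKM. RHEB, the GTPase that the complex inactivates, stood at 72.6 FPKM in the primary tumor and 103 in the metastatic one. The level of RHEB over that of TSC2 was thus 1.76 in the primary tumor and 3.25 in the metastatic one.

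Genes upstream of the TSC complex were mostly lower in the metastatic tumor. Of 13 expressed genes of PI3K, AKT and AMPK input, 11 had a log2 ratio below 0 and 2 above it. With the length trend removed 8 were below 0 and 5 above it. Of these 13 genes, 3 were lower by 2-fold or more and 0 higher, beside 9.35% and 9.22% of all entries. Their median was -0.39. PIK3R1, the regulatory subunit of PI3-kinase, stood at 13.8 FPKM in the primary tumor and 4.19 in the metastatic one. PRKAA1, a catalytic subunit of AMPK, which activates TSC2, stood at 44.3 and 15.7 FPKM, whereas the AMPK subunits PRKAB1 and PRKAG1 stood at 21.3 and 34.3 and at 46.5 and 79.3. SESN3, a stress-induced inhibitor of mTORC1, stood at 8.15 and 2.99 FPKM. With the length trend removed PIK3R1 and PRKAA1 were past 2-fold and SESN3 was not. AKT2, a kinase that inactivates TSC2, stood at 83.6 and 45.0 FPKM, and passed 2-fold lower when the libraries were brought to the same sum. Of 7 expressed genes of the TSC partner, Rheb and mTORC1 list, 6 were above 0, beside 51.8% of all entries. By 2-fold or more 1 was higher and 1 lower, beside 9.22% and 9.35% of all entries, and the median was 0.50. With the length trend removed 5 of these 7 were above 0, and only MTOR was past 2-fold. The kinase MTOR itself stood at 12.4 and 23.8 FPKM and its scaffold RPTOR at 3.45 and 5.63. RHEBL1, a relative of RHEB, stood at 1.56 and 4.47 FPKM, and DEPTOR, an inhibitor of mTOR, at 15.0 and 5.95. In the mTORC2 list, the scaffold RICTOR stood at 7.13 and 3.21 FPKM, MAPKAP1 at 33.3 and 63.8 and PRR5L at 1.58 and 0.743. With 1 FPKM added to each value, 0 of 3 passed 2-fold and the median was -0.56. As FPKM alone RICTOR was lower by 2.22-fold and PRR5L by 2.12-fold. RICTOR also passed 2-fold with the added 1 FPKM once the libraries were brought to the same sum.

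Downstream of mTORC1, 1 of 9 expressed effectors was higher by 2-fold or more and 0 lower, beside 9.22% and 9.35% of all entries. Their median was -0.07. The higher one was EIF4EBP1, the translation repressor that mTORC1 phosphorylates, at 135 FPKM in the primary tumor and 335 in the metastatic one. ULK1, the autophagy kinase, stood at 29.1 and 16.3 FPKM, TFEB, a lysosomal transcription factor, at 1.95 and 3.01, and EIF4EBP2 at 16.1 and 11.6. Among 15 expressed genes of the amino acid branch, 1 was higher and 1 lower, beside the same shares of all entries. Their median was 0.24. LAMTOR2, of the lysosomal anchor of mTORC1, stood at 83.5 and 200 FPKM, LAMTOR5 at 248 and 440 and LAMTOR4 at 156 and 252, while the GTPase RRAGB stood at 36.6 and 16.8. LAMTOR2 fell short of 2-fold with the length trend removed. These are RNA levels, and phosphorylation by mTORC1 was not measured.

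**Figure D5:**
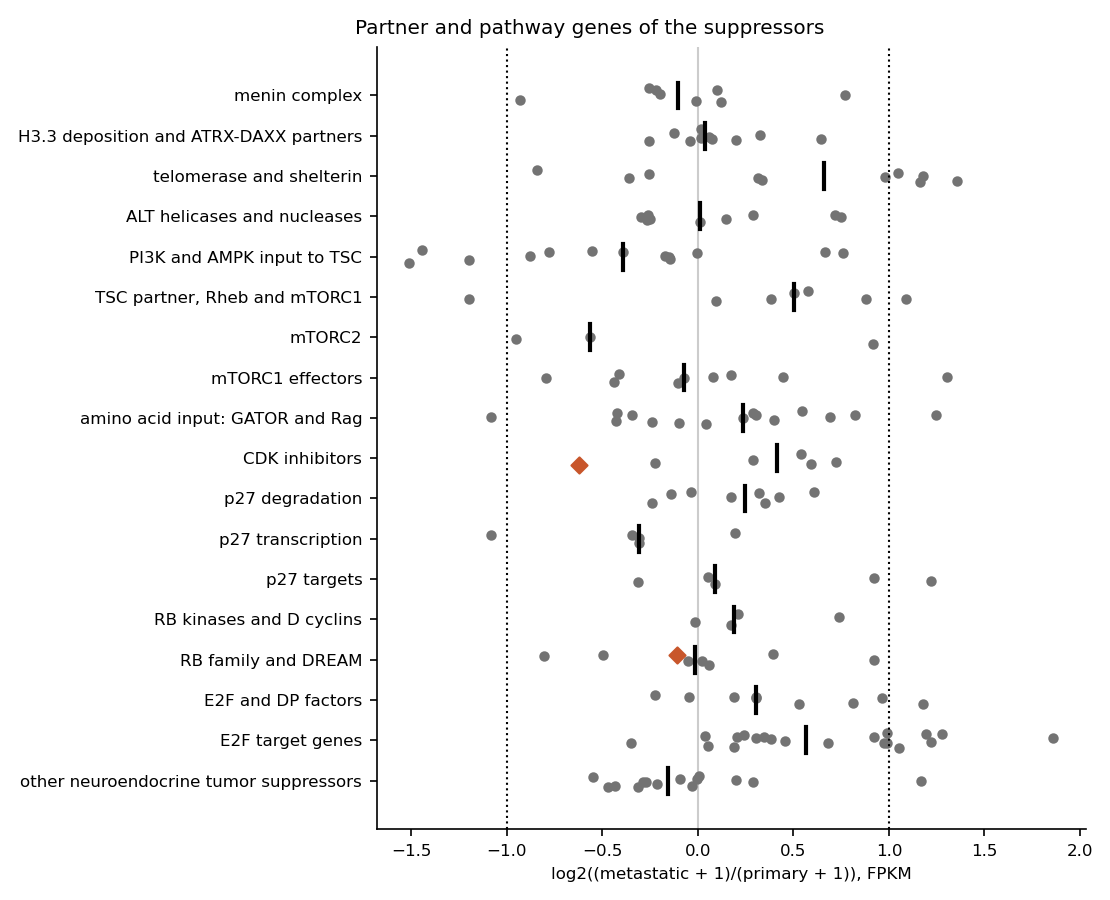
Log2 ratio, metastatic over primary, of expressed genes of each partner and pathway list (grey points, members of the 7 as diamonds), with the list median as a black bar and dotted lines at 2-fold. Medians are furthest right for telomerase and shelterin (0.66) and E2F target genes (0.57) and furthest left for mTORC2 (-0.56), a list of 3 genes; CDKN1B lies lowest among the CDK inhibitors.

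CDKN1B, encoding p27, stood at 36.9 FPKM in the primary tumor and 23.6 in the metastatic one, 64.0% of the primary level. Its log2 ratio was -0.62, lower than in all but 18.7% of entries, and from -0.79 to -0.56 over the alternatives tried. Removing the length trend, as was done for ATRX, left -0.56. It was the lowest in ratio of the 6 expressed CDK inhibitors, of which 0 passed 2-fold and whose median was 0.41, or 0.08 with the length trend removed. CDKN1A, encoding p21, stood at 29.8 and 43.7 FPKM, so CDKN1B exceeded CDKN1A in the primary tumor but was exceeded by it in the metastatic one. CDKN2D stood at 7.72 and 13.4 FPKM and CDKN2B, encoding p15, at 76.1 and 115. CDKN2A, which encodes p16 and ARF, stood at 815 FPKM in the primary tumor and 997 in the metastatic one. Reads of p16 and ARF are not separated in a value per gene.

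Genes that act on p27 were expressed in both tumors. Of 8 expressed genes of p27 degradation, 0 passed 2-fold and the median was 0.25. SKP2, the F-box protein that marks p27 for destruction, stood at 18.4 and 15.4 FPKM, and its cofactor CKS1B at 73.2 and 91.8. RBX1 stood at 72.6 and 111 FPKM, UBAC1 at 9.30 and 12.8 and CUL1 at 29.6 and 38.0. Of the forkhead factors that activate CDKN1B, FOXO4 stood at 7.65 FPKM in the primary tumor and 3.08 in the metastatic one, lower by 2-fold or more, while FOXO3 stood at 8.78 and 6.71, FOXO1 at 4.20 and 3.20 and the factor SP1 at 12.9 and 10.2. The targets of p27 differed among themselves. CDK2 stood at 28.5 and 22.8 FPKM, whereas the E cyclins CCNE1 and CCNE2 stood at 14.1 and 27.6 and at 1.501 and 4.83. CDKN1B exceeded CCNE1 by 2.62-fold in the primary tumor, while its level was 0.856 times that of CCNE1 in the metastatic one. CCNA1 and CCNA2 stood at 3.20 and 3.46 and at 22.4 and 23.3 FPKM.

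RB1 was the lowest of the 6 genes expressed in both tumors, at 4.88 FPKM in the primary tumor and 4.44 in the metastatic one. Its log2 ratio was -0.11, and its level exceeded 33.7% of entries in the primary tumor and 34.0% in the metastatic one. Its relatives were in the same range. RBL1, encoding p107, stood at 2.68 and 2.55 FPKM, and RBL2, encoding p130, at 7.98 and 4.13. The RBL2 level was 1.64 times that of RB1 in the primary tumor but 0.93 times in the metastatic one. Within the list of the RB family and the DREAM complex, which represses cell cycle genes, 0 of 8 passed 2-fold and the median was -0.01. MYBL2, the activating partner of the same core, stood at 31.7 and 61.0 FPKM, LIN54 at 3.26 and 2.02 and LIN9 at 5.93 and 8.10.

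The kinases and D cyclins that act on the RB protein were expressed in both tumors. CDK4 stood at 203 FPKM in the primary tumor and 200 in the metastatic one, CDK6 at 9.00 and 10.6, CCND1 at 23.0 and 26.0 and CCND3 at 12.2 and 21.0, with 0 of 4 past 2-fold and a median of 0.19. CDK4 exceeded RB1 by 41.5-fold in the primary tumor and 45.1-fold in the metastatic one, and CDKN2A exceeded it by 167-fold and 224-fold. Of 9 expressed E2F and DP genes 7 had a log2 ratio above 0, beside 51.8% of all entries. Among these 9, 1 was higher by 2-fold or more and 0 lower, beside 9.22% and 9.35% of all entries. Their median was 0.30. E2F1, a direct partner of the RB protein, stood at 4.59 and 11.7 FPKM, its dimer partner TFDP1 at 20.7 and 41.2, E2F4 at 22.7 and 40.6 and E2F7 at 2.35 and 3.82. E2F1 was 0.941 times RB1 in the primary tumor and 2.62 times in the metastatic one.

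Of 20 listed genes that E2F factors activate at the start of S phase, all expressed, 19 had a log2 ratio above 0, beside 51.8% of all entries. By 2-fold or more 5 were higher and 0 lower, beside 9.22% and 9.35% of all entries, and the median was 0.57 beside 0.03. With the libraries brought to the same sum 17 were above 0, 4 were higher by 2-fold or more and the median was 0.40. With the 75th percentiles made equal, 8 were higher by 2-fold or more. With the length trend removed 17 were above 0 and 5 past 2-fold, CDC6 in place of PCNA. CDC25A, the phosphatase that activates CDK2, stood at 5.41 FPKM in the primary tumor and 22.3 in the metastatic one. MCM3 and CDC45, of the replicative helicase, stood at 20.7 and 51.6 and at 15.8 and 37.5 FPKM. CCNE2 was also higher by 2-fold or more, and the sliding clamp PCNA, at 80.7 and 168 FPKM, was the last of the 5. RRM2 and CCNA2, targets of the same factors, were level at 56.9 and 58.3 and at 22.4 and 23.3 FPKM. CDT1, at 24.4 and 18.9 FPKM, went the other way.

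Of the other suppressors known from neuroendocrine tumors, 14 were expressed and measured alone. Among these 14, 1 was higher by 2-fold or more and 0 lower, beside 9.22% and 9.35% of all entries. Their median was -0.16. The higher one was SMARCA4, the ATPase of the SWI/SNF remodeler, at 231 FPKM in the primary tumor and 519 in the metastatic one, and it fell short of 2-fold with the libraries brought to the same sum. KMT2C stood at 7.04 and 4.49 FPKM, VHL, of the ubiquitin ligase for hypoxia factors, at 21.8 and 15.5, and KMT2D at 14.9 and 10.8. SMARCB1, a core subunit of the same remodeler as SMARCA4, stood at 0.211 FPKM in the primary tumor but was listed at 0 in the metastatic one. SMARCB1 has 2 rows, and like DAXX it belongs to the names with several rows in which low values were common. APC, SMAD4, MUTYH and DEPDC5 were listed only in loci merged with other genes.

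For each of the 6 expressed suppressors the gene nearest in log2(FPKM + 1) over the 2 libraries was found. ATRX had 5 genes within a distance of 0.1, the nearest being PFKFB3, at 40.5 FPKM in the primary tumor and 19.0 in the metastatic one. CDKN1B had 15, the nearest being VEZT at 36.7 and 23.1 FPKM. MEN1, TSC1, TSC2 and RB1 had 40, 36, 31 and 41, with IMPAD1, CCDC24, ZFAND1 and RADX nearest. With only 2 libraries, many genes share a pattern, and likeness over 2 values says little about a gene.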

How the data were processed

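RNA from 1 primary and 1 metastatic xenograft was read from 1 deposited table of 62573 rows, whose unit is FPKM per the file headers. The build GRCh38 and the tools STAR 2.7.6a, Cufflinks 2.2.1 and bcl2fastq 2.18.0.12 are named, without their roles, in the submitters' processing notes; the labels give mouse as organism. The sources used here do not state the annotation, the strand setting or what was done with mouse reads. Read depth is unknown, so no interval is given. Rows of the same name were summed (pandas 2.3.3), and a gene found only in a locus merged with other genes was not read. Ratios used a pseudocount of 1 FPKM and no rescaling. Expressed means at least 1 FPKM in a library.

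The 7 genes, the lists and the rule for named genes were chosen with earlier results of these data known. The rule took all 7 genes, up to 4 genes of each list with the largest absolute ratio, direct partners of the 7, and the nearest gene to each; PCNA, RRM2, CDT1, WRAP53, POT1, PSIP1 and other genes outside it were chosen after their values were seen. Transcript lengths came from mouse transcripts, which matched 88.7% of 10565 expressed genes. The ratio and counting steps were tested on simulated data. Human sequences were not used here. Some listed genes are not reported here and were left out of the lists and their counts.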

Additional observations from a re-analysis of the deposited data

How the results depend on the processing

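The number of suppressors lower by 2-fold or more, 1 as reported, was 0 with 75th percentile scaling, 0 with the length trend removed (chosen after seeing the data), 0 at a 4-fold threshold and 2 at a 1.5-fold threshold. ATRX was -0.97 and -0.75 under the first 2 of these and past 2-fold under its other 6 alternatives. The number higher by 2-fold or more was 0 throughout. The median log2 ratio of the 7 genes, -0.11 as reported, was -0.26 with the libraries at the same sum and -0.24 without DAXX. It was -0.23 with the highest row of a name in place of the sum, -0.28 with merged loci added and -0.30 with a pseudocount of 0.1 FPKM. Under each of these last settings the median was the ratio of DAXX itself, whose own rows summed to under 1 FPKM in both libraries. CDKN1B, TSC2, RB1 and DAXX kept a ratio below 0 under all 8 alternatives. The highest row and merged loci settings could change only DAXX. The other genes, ATRX among them, have 1 row each and no merged locus, so these settings were no check on them. MEN1 turned to -0.05 at the same sum and TSC1 to 0.23 with the length trend removed, both near 0. With the length trend removed, the median of the mTORC1 effectors went from -0.07 to 0.11, that of the amino acid branch from 0.24 to 0.00026, of p27 degradation from 0.25 to 0.14, of the p27 targets from 0.09 to -0.05 and of the RB kinases from 0.19 to 0.35. Expressed suppressors were 5 at a minimum of 5 FPKM and 7 at 0.1 FPKM. Entries lower by 2-fold or more fell from 1291 to 859 with a filter of 5 FPKM, which tests fewer genes. No paired analysis was possible because each group holds 1 library. With 1 library each and no counts, the error of every ratio is unknown.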

Other observations

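Names that fill several rows were low across the whole table, and not only in the lists around the suppressors. Leaving out clone names, short RNAs, antisense RNAs, pseudogenes and immune receptor segments, 201 of 217 names with at least 5 rows stood under 1 FPKM in both libraries, or 92.6%. The share was 89.5% of 1178 names with 2 to 4 rows and 49.4% of 20690 names with 1 row. TUBB, a tubulin gene with 8 rows, stood at 7.71 FPKM in the primary tumor and 12.0 in the metastatic one, so a name with several rows was not always near 0.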
